A study of Homo sapiens
Mus musculus and Mus musculus and Homo sapiens with 16 samples.

Results

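The 38 genes described here are ATF4 and genes of the amino acid stress response, chosen by name from lists of ATF4 targets and related enzymes, transporters and tRNA synthetases. All 38 were found among the 58051 genes of the human count table, and the same 38 symbols, ignoring case, among the 49671 genes of the mouse table. They were grouped by role as 6 transcription factors, 6 stress regulators and secreted or surface targets, 5 enzymes of serine, glycine and one-carbon metabolism, 7 other enzymes of amino acid metabolism, 5 amino acid transporters, and 9 genes of tRNA charging and tRNA export. Several synthetase genes carry their earlier symbols in the count tables, such as WARS for WARS1.

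Gene expression was measured by RNA-seq in REC-1, a human mantle cell lymphoma cell line, and in MS-5, a stromal cell line from mouse bone marrow. For coculture, 500000 MS-5 cells were plated 24 h ahead, 5000000 REC-1 cells were added, and RNA was taken after 24 h in the same αMEM-based medium for all groups. The groups were REC-1 cells cultured alone (Sep), REC-1 cells in suspension above the stroma (Susp), REC-1 cells adhered to it (Adh) and MS-5 cells alone, with 4 libraries each. No drug or genetic change was applied, and each cell type was represented by 1 line. An Adh library holds the RNA of adherent REC-1 cells and of the MS-5 cells under them, so the same 4 libraries gave human counts for adherent REC-1 cells and mouse counts for MS-5 cells in coculture. The study describes the libraries of the REC-1 groups as independent experiments. The labels give libraries of different groups the same replicate numbers but do not say whether a number marks a shared experiment. They also do not say whether the libraries of MS-5 cells alone came from separate cultures, and p-values measure the spread between libraries.

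ATF4 is a transcription factor whose mRNA is translated more when the initiation factor eIF2α is phosphorylated. The kinases that do this sense, among other things, uncharged tRNA in cells short of amino acids (GCN2) and unfolded protein in the endoplasmic reticulum (PERK). ATF4 then activates genes for amino acid synthesis, uptake and tRNA charging, together with genes that limit the response or lead to cell death if stress persists. Because ATF4 is controlled largely at translation, the level of its mRNA is not a measure of its protein.

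ATF4 binds DNA with partner proteins of the C/EBP family at composite elements with the letters TGATGNAA, where N is any base. This element was searched for on both strands in the 250 bases before the start of the canonical transcript of each human gene. It was found in 8 of the 38 promoters (21.1%), against 432 of the 19616 promoters of protein-coding genes in the table (2.2%). The promoters that held it were those of ATF3, with 2 copies, and of NUPR1, CHAC1, ASNS, PYCR1, BCAT1, GARS and AARS. The following 30-base windows show the matches in members that passed a test below (ASNS, BCAT1 and GARS) and in ATF3 and CHAC1, which are often read as markers of the response. They were read from GRCh38 along the strand of the gene, and the capitals mark the element or its reverse complement.
ASNS, chr7:97872458-97872487, minus strand, 68 bases before the start: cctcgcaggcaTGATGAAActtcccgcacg
BCAT1, chr12:24949131-24949160, minus strand, 48 bases before the start: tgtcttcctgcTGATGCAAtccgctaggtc
GARS, chr7:30594834-30594863, plus strand, 33 bases before the start, reverse complement: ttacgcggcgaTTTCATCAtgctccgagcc
ATF3, chr1:212608729-212608758, plus strand, 21 bases before the start: tataaaaggggTGATGCAAcgctctccaag
ATF3, chr1:212608547-212608576, plus strand, 203 bases before the start, reverse complement: cctccccgaacTTGCATCAccagtgccccc
CHAC1, chr15:40953251-40953280, plus strand, 209 bases before the start, reverse complement: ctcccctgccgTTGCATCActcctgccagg
The GARS window also lies in an exon of the divergent transcript GARS1-DT. The windows of ASNS, GARS and CHAC1 and the nearer one of ATF3 also lie in exons of other annotated transcripts of the same gene. The promoters of ATF4, ATF5, PSAT1 and WARS did not hold these letters in the bases searched.

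Human counts ranged from 7758979 to 21467832 per library over the 12 REC-1 libraries, and mouse counts from 10097555 to 17397651 in MS-5 cells alone and from 29495404 to 34615602 in the Adh libraries. Levels are given as CPM, counts scaled to equal library totals after edgeR's TMM adjustment. Members were tested with edgeR's quasi-likelihood test in a fit of all genes that passed its filter on low counts, 12861 human and 12201 mouse genes. A gene passed the test at a Benjamini-Hochberg adjusted p of at most 0.05, and was called when its change was also at least 1.5-fold. Of the 38 members, 34 were tested in REC-1 cells and 35 in MS-5 cells. Susp replicate 2 stood apart, with rank correlations of 0.962 to 0.982 with the other REC-1 libraries. The lowest was with Sep replicate 1. Its deviation from the mean of all REC-1 libraries followed exon length (rho = -0.45) and GC content (rho = 0.52) across 12861 genes. For exon length, rho was -0.15 to 0.19 in the other REC-1 libraries. The trend with GC content was not particular to Susp replicate 2. For GC content, rho was -0.58 in Sep replicate 1, -0.53 in Adh replicate 1 and 0.48 in Susp replicate 3. Several results in REC-1 cells are also given without Susp replicate 2. The B-cell markers checked (MS4A1, CD79A, CD79B, PAX5, CD22, CCND1 and CD5) summed to 4727 to 6108 CPM in the human counts, and all 7 had counts in each REC-1 group, while the 8 stromal fibroblast markers summed to 5.04 to 8.99 CPM there, with Pdgfra and Vcam1 at 0 in all REC-1 groups. CD5, however, was near the floor, with only 12, 48 and 14 human counts over all libraries of Sep, Susp and Adh. In the mouse counts, the stromal markers summed to 5047 to 5991 CPM, and the B-cell markers to 246 to 342 CPM, nearly all from Ccnd1, which many cell types express. Cd79b, Pax5 and Cd22 were at 0 there, Ms4a1 and Cd79a had 2 counts each over the 4 coculture libraries and 0 in MS-5 cells alone, and Cd5 had 2 counts in MS-5 cells alone. Of the 6 B-cell markers tested, 2 passed with a rise in Susp against Sep and 1 in Adh against Sep, and PECAM1, the only endothelial marker with human counts, was called in Susp against Sep at 0.70 on the log2 scale. Their part in the results below was not tested.

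Adherent REC-1 cells had more mRNA of several ATF4-related genes than REC-1 cells cultured alone. ASNS, which makes asparagine from aspartate and is a standard target of ATF4, was the 1 member called, at 1.52-fold. ATF5, a transcription factor related to ATF4, PSAT1, the aminotransferase of serine synthesis, and WARS, the tryptophanyl-tRNA synthetase, also rose but by less than 1.5-fold. Of the 34 members tested, 31 had a higher mean in Adh than in Sep cells, against 49.5% of all genes tested. The median log2 fold change was 0.18 over the members and -0.0034 over all genes tested. In this comparison 2.40% of all genes were called and 3.41% passed the adjusted p, against 1 and 4 of the 34 members. All 4 members rose, while 1.11% of all genes passed with a rise.

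**Figure D1:**
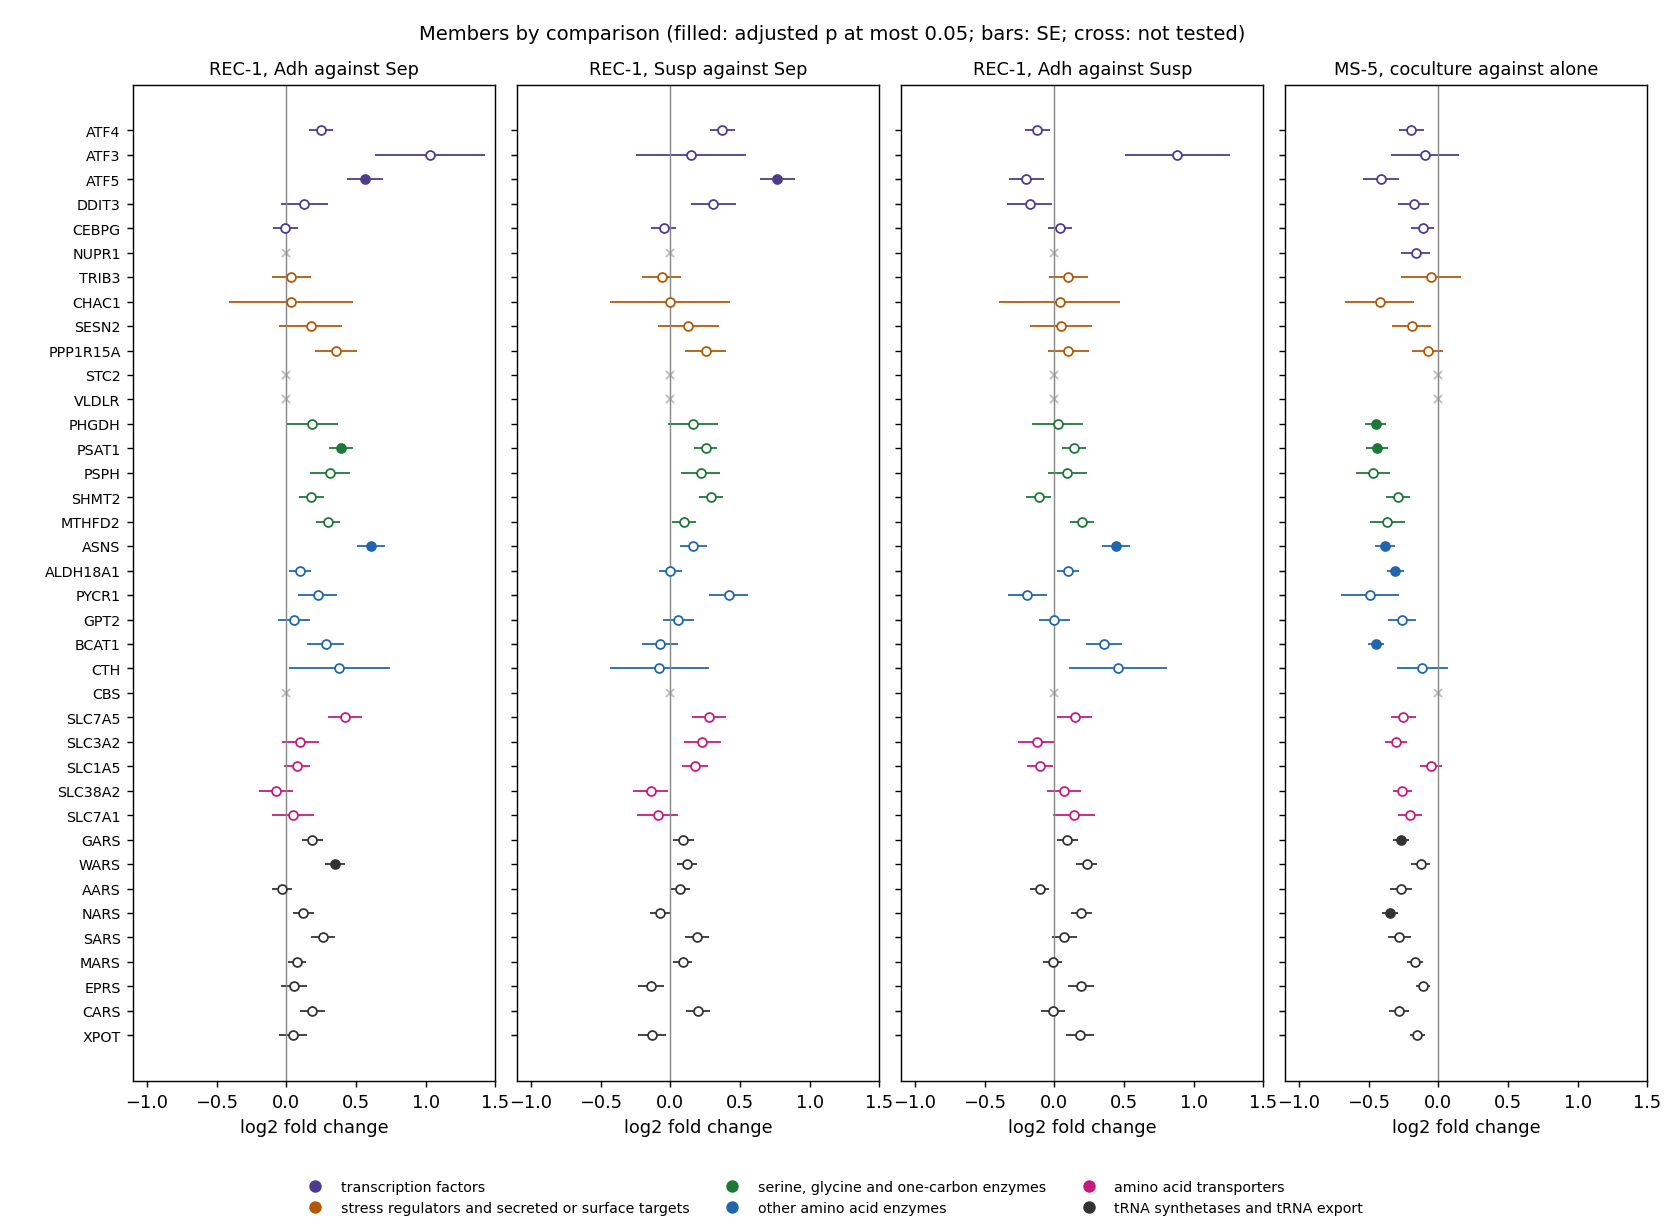
Log2 fold change (x axis) of each of the 38 members (rows, coloured by role) in the REC-1 comparisons of Adh with Sep, Susp with Sep and Adh with Susp cells and in MS-5 cells in coculture against MS-5 cells alone. Points are edgeR estimates, bars are SE, filled points have an adjusted p of at most 0.05 and crosses are members that were not tested. In Adh against Sep, 31 of 34 points lie to the right of 0, and in MS-5 cells all 35 lie to the left.

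Among the transcription factors, ATF4 itself was at 242, 257, 253 and 263 CPM in Sep replicates 1 to 4, at 292, 388, 329 and 304 CPM in Susp and at 283, 301, 309 and 314 CPM in Adh. The lowest Susp and Adh libraries lay above the highest Sep library, and Susp replicate 2 was the highest of all. ATF4 differed by a log2 fold change of 0.25 (SE 0.089, adjusted p = 0.125) between Adh and Sep and of 0.37 (SE 0.089, adjusted p = 0.0578) between Susp and Sep, neither of which passed. Without Susp replicate 2 both passed, at 0.25 (adjusted p = 0.00933) and 0.27 (adjusted p = 0.0324). In all, ATF4 passed in 4 of 26 alternatives in Adh against Sep and in 6 of 26 in Susp against Sep. With trends on GC content and length removed, it was 0.29 (adjusted p = 0.0086) in Adh against Sep. In Susp against Sep it was then 0.19 and did not pass. Between Adh and Susp, ATF4 differed by -0.12 (SE 0.089, adjusted p = 0.466). The human table holds 4 ATF4 pseudogenes, and reads that match them as well as ATF4 were not counted on either.

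ATF5 lies on chromosome 19 (GRCh38, 49928702 to 49933935, plus strand) and was the 1 member called in Susp against Sep. It was at 78.7, 93.0, 89.2 and 94.3 CPM in Sep replicates 1 to 4, at 130, 189, 153 and 132 CPM in Susp and at 106, 139, 139 and 141 CPM in Adh. All Susp and Adh libraries lay above all Sep libraries, and Adh replicate 1 was the lowest of its group. The log2 fold change was 0.77 (SE 0.126, adjusted p = 0.00511) in Susp against Sep, where 0.731% of all genes were called. In Adh against Sep it was 0.56 (SE 0.126, adjusted p = 0.0218), and between Adh and Susp -0.20 (SE 0.125, adjusted p = 0.395). Without Susp replicate 2 the change in Susp was 0.63 (adjusted p = 0.00231), and after removal of each library's trend with GC content and length it was 0.54, below 1.5-fold, with the adjusted p still under 0.05. ATF5 shares exonic bases with IL4I1 and NUP62, and the library kit did not keep the strand. NUP62 differed by 0.060 (SE 0.138) on the log2 scale between Susp and Sep, and IL4I1 had 130 counts over all 12 libraries.

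The other transcription factors of the response did not pass in REC-1 cells. DDIT3, also called CHOP, which is induced by prolonged stress and favours cell death, was at 13.5, 11.9, 13.8 and 15.3 CPM in Sep, at 11.8, 21.8, 16.8 and 16.9 CPM in Susp and at 15.9, 13.3, 15.7 and 14.8 CPM in Adh. The ranges of the groups overlapped. Its log2 fold change was 0.13 (SE 0.166, adjusted p = 0.709) in Adh against Sep, 0.31 (SE 0.161, adjusted p = 0.337) in Susp against Sep and -0.18 (SE 0.162, adjusted p = 0.568) in Adh against Susp. Without Susp replicate 2, DDIT3 differed by 0.15 (adjusted p = 0.768) in Susp against Sep and by -0.011 (adjusted p = 0.976) in Adh against Susp. ATF3, a stress-induced factor of low level here, was at 0.945 to 1.67 CPM in Sep and at 1.93 to 4.11 CPM in Adh, and its log2 fold change of 1.03 (SE 0.394) in Adh against Sep had an adjusted p of 0.152. CEBPG, a binding partner of ATF4, was at 59.7 to 76.6 CPM in all 12 libraries, with a log2 fold change of -0.0075 in Adh against Sep. NUPR1, a stress-induced chromatin protein, had 0 counts in all 12 REC-1 libraries, where 3 counts would be 0.140 to 0.387 CPM.

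**Figure D2:**
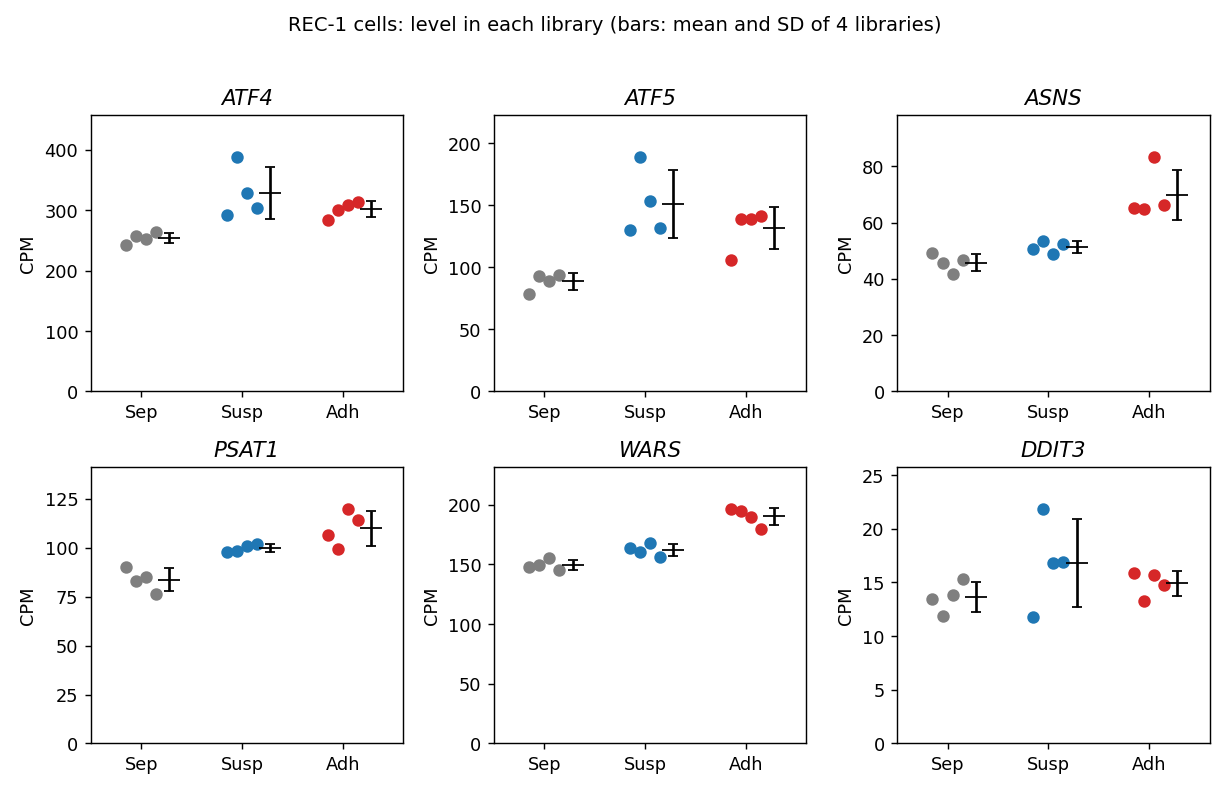
Levels of ATF4, ATF5, ASNS, PSAT1, WARS and DDIT3 in CPM (y axis, from 0) in each REC-1 library of the Sep, Susp and Adh groups. Points are libraries and the bars beside them are the mean and SD of 4 libraries. ATF4, ATF5, PSAT1 and WARS are above all Sep libraries in every Susp and Adh library, ASNS is highest in Adh, and DDIT3 overlaps between groups.

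None of the 4 stress regulators tested passed in REC-1 cells with the test as stated above. TRIB3, a pseudokinase that restrains ATF4 and DDIT3, was at 24.6, 23.6, 29.9 and 31.2 CPM in Sep, at 21.5, 32.1, 24.9 and 26.1 CPM in Susp and at 24.5, 29.5, 26.5 and 31.8 CPM in Adh. Its log2 fold change was 0.036 (SE 0.140, adjusted p = 0.918) in Adh against Sep, -0.064 (SE 0.138, adjusted p = 0.827) in Susp against Sep and 0.10 (SE 0.139, adjusted p = 0.722) in Adh against Susp. With trends on GC content and length removed, the last was 0.44 and passed (adjusted p = 0.0299). Without Susp replicate 2, TRIB3 differed by -0.19 (adjusted p = 0.627) in Susp against Sep and by 0.23 (adjusted p = 0.351) in Adh against Susp. CHAC1, which degrades glutathione, was at 1.34, 6.44, 4.19 and 6.38 CPM in Sep, at 2.46, 5.16, 5.75 and 4.84 CPM in Susp and at 2.41, 3.08, 4.88 and 8.98 CPM in Adh. The replicate numbered 1 was the lowest in each group, and the spread within groups exceeded the differences between them. The log2 fold change of CHAC1 was 0.033 (SE 0.447, adjusted p = 0.977) in Adh against Sep, -0.0035 (SE 0.429, adjusted p = 0.997) in Susp against Sep and 0.037 (SE 0.437, adjusted p = 0.972) in Adh against Susp. The 95% interval of the CHAC1 difference between Adh and Sep ran from -0.91 to 0.98, so a change near 2-fold was not detectable at this spread, while that of TRIB3 ran from -0.26 to 0.33. PPP1R15A, which directs dephosphorylation of eIF2α, had a log2 fold change of 0.35 (SE 0.151, adjusted p = 0.197) in Adh against Sep, and SESN2, an inhibitor of mTORC1, one of 0.17 (SE 0.225, adjusted p = 0.712). The secreted glycoprotein gene STC2 had no counts, and VLDLR, a lipoprotein receptor gene, was at 0 to 0.418 CPM and was not tested.

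Of the 11 enzymes of amino acid metabolism tested, ASNS and PSAT1 passed in Adh against Sep. ASNS lies on chromosome 7 (GRCh38, 97851677 to 97872542, minus strand). It was at 49.0, 45.5, 41.7 and 46.7 CPM in Sep, at 50.7, 53.5, 48.9 and 52.4 CPM in Susp and at 65.1, 64.7, 83.4 and 66.2 CPM in Adh. All 4 Adh libraries lay above all Susp and Sep libraries, and Adh replicate 3 stood well above the other 3. ASNS was higher in Adh than in Sep by a log2 fold change of 0.61 (SE 0.10, adjusted p = 0.00239) and higher in Adh than in Susp by 0.44 (SE 0.0989, adjusted p = 0.0435). Between Susp and Sep it differed by 0.17 (SE 0.0992, adjusted p = 0.387). Without Susp replicate 2 the changes were 0.61 (adjusted p = 0.000631) and 0.48 (adjusted p = 0.0275). In Adh against Sep, the call at 1.5-fold was lost without Adh replicate 3, at 0.51, and without Sep replicate 3, at 0.57, with an adjusted p of at most 0.0153 in the 26 alternatives. In Adh against Susp, the adjusted p of ASNS was above 0.05 in 13 of 26 alternatives, up to 0.142 without Adh replicate 3, with upper-quartile normalization, thinned counts, a model of the 2 groups and 10 of the 12 single libraries left out. The table holds 4 ASNS pseudogenes. Over the Adh libraries ASNS had 2703 human counts and Asns 27666 mouse counts. The human share of all counts was lowest in Adh replicate 3, at 18.3%, and was 20.2 to 28.2% in the other Adh libraries. With 0.1% of the mouse counts subtracted, ASNS differed by 0.60 (adjusted p = 0.00245) in Adh against Sep. The effect of a larger share of mouse reads given to human ASNS was not tested.

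In the serine and one-carbon pathway all 5 members had a higher mean in Adh than in Sep and in Susp than in Sep. PSAT1 (chromosome 9, 78297125 to 78330093, plus strand) was at 90.4, 82.9, 85.2 and 76.4 CPM in Sep, at 97.6, 98.4, 101 and 102 CPM in Susp and at 106, 99.3, 120 and 114 CPM in Adh. The Sep libraries lay below all others. Its log2 fold change was 0.39 (SE 0.0861, adjusted p = 0.0198) in Adh against Sep and 0.25 (SE 0.0855, adjusted p = 0.177) in Susp against Sep. MTHFD2, a mitochondrial enzyme of folate metabolism, differed by 0.30 (SE 0.0863, adjusted p = 0.0671) in Adh against Sep, with groups that did not overlap. SHMT2, which converts serine to glycine in mitochondria, was at 626 to 688 CPM in Sep and at 708 to 808 CPM in Adh, a log2 fold change of 0.18 (adjusted p = 0.269). PSPH, the phosphatase of the last step of serine synthesis, had 0.31 (adjusted p = 0.236). PHGDH, the first enzyme of the pathway, was low at 9.20 to 17.2 CPM over the REC-1 libraries, with a log2 fold change of 0.19 (SE 0.185, adjusted p = 0.618). PSAT1 and MTHFD2 have 4 and 7 pseudogenes in the table, and PSPH has 1.

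Of the other enzymes, BCAT1, which transfers the amino group of branched-chain amino acids, was at 354 to 413 CPM in Sep and at 403 to 491 CPM in Adh. Its log2 fold change of 0.28 (SE 0.131) had an adjusted p of 0.240, and of 0.0202 without Susp replicate 2. PYCR1, the last enzyme of proline synthesis, was at 32.6 to 47.8 CPM in Sep and at 46.8 to 67.7 CPM in Susp, a log2 fold change of 0.42 (adjusted p = 0.168). Without Susp replicate 2 it was 0.32 (adjusted p = 0.338). The log2 fold changes in Adh against Sep were 0.096 for ALDH18A1, which starts proline synthesis, 0.055 for GPT2, an alanine aminotransferase, and 0.38 (SE 0.361) for CTH, an enzyme of cysteine synthesis at 0.638 to 2.36 CPM. None of these passed with the test as stated above. PYCR1 passed in Susp against Sep with no low-count filter and with the replicate block. BCAT1 passed in Adh against Susp with no low-count filter and in Adh against Sep with only the 2 groups. Both passed in Adh against Sep with trends on GC content and length removed. CBS, which acts before CTH, was at 0.209 to 1.28 CPM and was not tested.

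With the test as stated above, the transporters did not pass in a REC-1 comparison. SLC7A5, the light chain of the transporter for large neutral amino acids, came nearest, at 83.1, 111, 92.6 and 116 CPM in Sep and at 107, 142, 134 and 157 CPM in Adh. The groups overlapped, and the log2 fold change was 0.42 (SE 0.124, adjusted p = 0.0695, and 0.0209 without Susp replicate 2). It also passed in Adh against Sep with DESeq2, with no low-count filter, with the replicate block, with only the 2 groups, without Adh replicate 1 and with trends on GC content and length removed, and in Adh against Susp with the trends removed. Its partner chain SLC3A2 differed by 0.10, the glutamine transporter SLC1A5 by 0.076, the neutral amino acid transporter SLC38A2 by -0.073 and the arginine and lysine transporter SLC7A1 by 0.049, with adjusted p from 0.696 to 0.893. SLC7A5 has 2 pseudogenes in the table.

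Among the genes of tRNA charging, WARS (chromosome 14, 100333790 to 100376805, minus strand) was at 148, 149, 156 and 145 CPM in Sep, at 164, 160.4, 168 and 156 CPM in Susp and at 196, 195, 189 and 179.8 CPM in Adh. The groups were in the order Sep, Susp, Adh with no overlap, though the highest Sep and lowest Susp libraries were nearly equal. Its log2 fold change was 0.35 (SE 0.0728, adjusted p = 0.0141) in Adh against Sep, 0.23 (adjusted p = 0.126) in Adh against Susp and 0.12 (adjusted p = 0.402) in Susp against Sep. WARS is also known as a target of interferon signaling, shares exonic bases with WDR25 and has 1 pseudogene in the table. SARS (seryl-tRNA synthetase) differed by 0.26 (adjusted p = 0.107), CARS (cysteinyl) by 0.19, GARS (glycyl) by 0.19, NARS (asparaginyl) by 0.12, MARS (methionyl) by 0.077, EPRS (glutamyl and prolyl) by 0.052, AARS (alanyl) by -0.033 and the tRNA exporter XPOT by 0.050 in Adh against Sep. These 8 did not pass with the test as stated above.

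The numbers of members that passed depended on single libraries. Without Susp replicate 2, which entered the shared estimate of the spread, 10 of 34 members passed in Adh against Sep, where 11.9% of all genes did. They were ASNS, ATF5, PSAT1 and WARS again, and in addition ATF4, BCAT1, MTHFD2, SARS, SHMT2 and SLC7A5, all higher in Adh. The median log2 fold change of the members was 0.19 without that library. Without Sep replicate 2, ASNS alone passed in Adh against Sep, where 1.28% of all genes did, and 2 members passed without Sep replicate 3, Sep replicate 4, Adh replicate 3 or Adh replicate 4. Of all genes, 1.54 to 1.94% passed in those settings. The adjusted p of ATF5 and of PSAT1 was above 0.05 in 5 alternatives each and that of WARS in 4, up to 0.0646, 0.0856 and 0.0674.

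Fewer members passed in the remaining comparisons of REC-1 cells. Adh against Susp, the comparison of adherent with suspended cells of the same coculture, gave 0 called members of 34, where 0.778% of all genes were called, and 6 members had an unadjusted p under 0.05, where 18.0% of all genes did. ASNS passed the adjusted p, as did 0.941% of all genes. DESeq2 also called 0 members at 1.5-fold, where it called 282 of all genes. The median log2 fold change was 0.082 over members and -0.0051 over all genes tested, with 23 of 34 members higher in Adh, against 49.1% of all genes. The Adh libraries lay above all Susp libraries for ASNS, BCAT1, GARS, MTHFD2, NARS and WARS, 6 members where 5.61% of all genes did so, and below them for AARS alone, where 5.84% of all genes did so. For Susp against Sep the median was 0.12 over members and -0.0059 over all genes, with 23 of 34 members higher in Susp, against 49.2% of all genes, and ATF5 was the 1 member past the adjusted p, as were 1.02% of all genes. Groups did not overlap for 6 members in Susp against Sep (ATF4, ATF5, MARS, PSAT1, SHMT2 and WARS, all higher, against 5.50% of all genes) and for 11 in Adh against Sep (the same 6 with ASNS, ATF3, GARS, MTHFD2 and SARS, all higher, against 7.42%).

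In MS-5 cells the same genes had lower levels in coculture. All 35 members tested had a lower mean in coculture than in MS-5 cells alone, against 50.4% of all genes tested, with log2 fold changes from -0.49 to -0.052. The median was -0.26 over the members and -0.0017 over all genes. No member reached the 1.5-fold of a call, where 0.205% of all genes were called. DESeq2 also called 0 members, where it called 38 of all genes. By the adjusted p alone 7 passed, where 0.770% of all genes did, and all 7 fell, where 0.574% of all genes passed with a fall. The libraries of the groups did not overlap for 12 members, all lower, against 3.68% of all genes. Without the adjustment, 24 of 35 members had p under 0.05, all lower, where 6.10% of all genes did so. The 7 were PHGDH, PSAT1, ASNS, BCAT1, ALDH18A1, NARS and GARS, which are enzymes of amino acid synthesis and turnover and synthetases. Mouse counts were deeper in every coculture library than in any library of MS-5 cells alone, and with counts thinned to the smallest library 6 members passed and 34 of 35 were lower.

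Of the enzymes of serine synthesis, Phgdh and Psat1 fell in MS-5 cells. Phgdh was at 321, 293, 344 and 355 CPM in MS-5 cells alone and at 213, 237, 243 and 269.8 CPM in coculture, with a log2 fold change of -0.45 (SE 0.0728, adjusted p = 0.0097). Psat1 was at 566, 525, 612 and 635 CPM alone and at 377, 399, 469 and 478 CPM in coculture, with -0.44 (SE 0.078, adjusted p = 0.014). All coculture libraries lay below all libraries of MS-5 cells alone for both genes. Psph, the third enzyme of the pathway, differed by -0.47 (SE 0.125, adjusted p = 0.114), also without overlap, Mthfd2 by -0.37 (adjusted p = 0.248) and Shmt2 by -0.29 (adjusted p = 0.193). The mouse table holds 1 Phgdh pseudogene.

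Asns was at 279, 264, 293 and 277 CPM in MS-5 cells alone and at 185, 204, 239.8 and 224 CPM in coculture. The groups did not overlap, and the log2 fold change was -0.38 (SE 0.0702, adjusted p = 0.0155). Bcat1 was at 75.9, 77.8, 81.7 and 80.9 CPM alone and at 57.0, 58.5, 56.5 and 59.9 CPM in coculture, with -0.45 (SE 0.0569, adjusted p = 0.00138), the smallest p of the members. Its SD within groups was 2.71 CPM alone and 1.51 CPM in coculture. Aldh18a1 differed by -0.31 (SE 0.0627, adjusted p = 0.0326), Pycr1, at 2.66 to 5.51 CPM, by -0.49 (SE 0.207, adjusted p = 0.380), Gpt2 by -0.26 (adjusted p = 0.317) and Cth by -0.11 (adjusted p = 0.876). Cbs was at 0 to 0.191 CPM and was not tested.

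**Figure D3:**
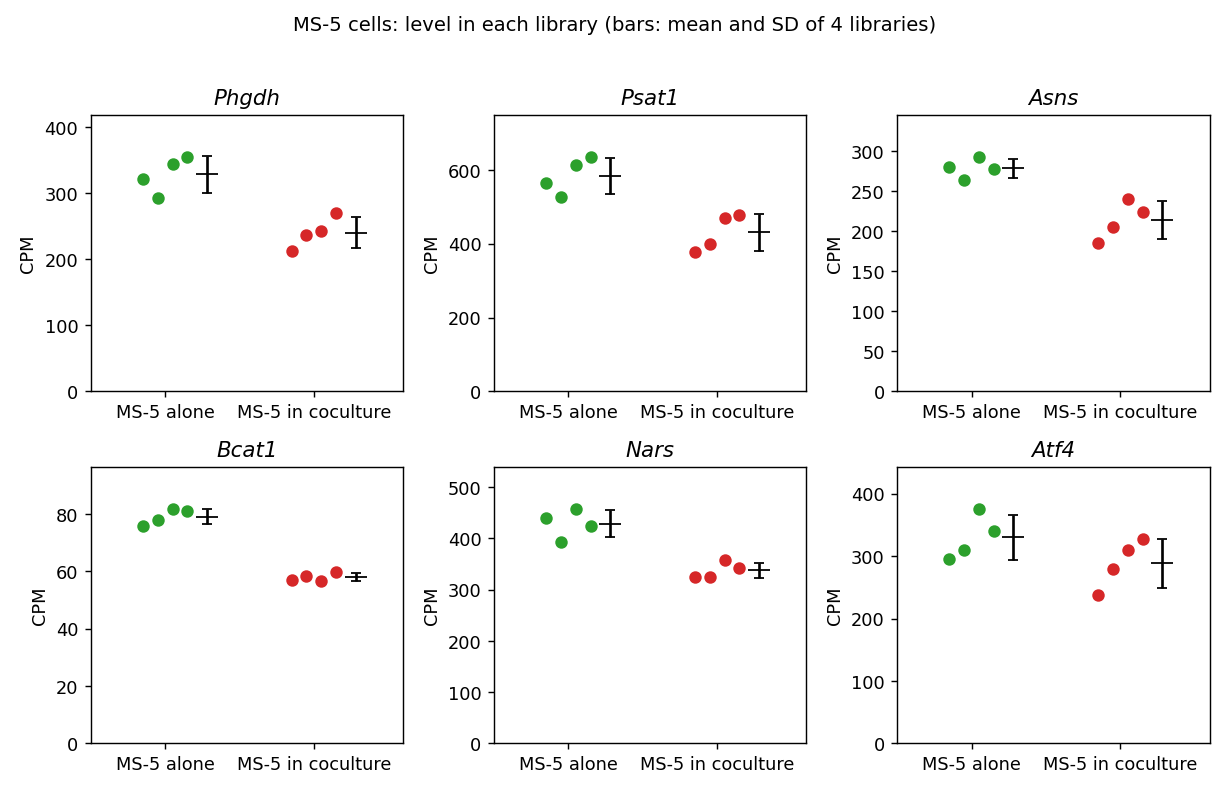
Levels of Phgdh, Psat1, Asns, Bcat1, Nars and Atf4 in CPM (y axis, from 0) in the 4 libraries of MS-5 cells alone and the 4 of MS-5 cells in coculture. Points are libraries and the bars beside them are the mean and SD. The coculture libraries lie below all libraries of MS-5 cells alone for the first 5 genes and overlap with them for Atf4.

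Of the synthetases, Nars was at 441, 394, 457 and 425 CPM in MS-5 cells alone and at 325, 325, 357 and 342 CPM in coculture, with a log2 fold change of -0.35 (SE 0.0546, adjusted p = 0.00887). Gars fell by 0.27 on the log2 scale (SE 0.0579, adjusted p = 0.0442). The other 7 genes of this group differed by -0.28 (Cars) to -0.11 (Eprs), with adjusted p from 0.106 to 0.502. Among the transporters, Slc3a2 differed by -0.30 and Slc38a2 by -0.26, both with adjusted p = 0.105 and without overlap of the groups, Slc7a5 by -0.25, Slc7a1 by -0.20 and Slc1a5 by -0.052.

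The transcription factors and stress regulators were lower by less, or with more spread, in MS-5 cells. Atf4 was at 295, 309, 375 and 341 CPM alone and at 238, 279, 309.6 and 327 CPM in coculture, with overlapping groups and a log2 fold change of -0.19 (SE 0.091, adjusted p = 0.443). It passed in 2 of 21 alternatives. These were the replicate block (-0.20, adjusted p = 0.0284) and the block with trends on GC content and length removed (-0.20, adjusted p = 0.000904). Of all genes, 3.57 and 6.70% passed there. Ddit3 was at 40.9, 43.6, 56.6 and 54.8 CPM alone and at 35.9, 44.7, 44.2 and 48.8 CPM in coculture, with -0.18 (SE 0.111, adjusted p = 0.590). These groups overlapped too. Atf5 differed by -0.41 (SE 0.128, adjusted p = 0.194), Nupr1, at 26.7 to 40.0 CPM, by -0.16, Cebpg by -0.11 and Atf3 by -0.097. Chac1 was at 7.95, 6.77, 10.5 and 12.9 CPM alone and at 4.08, 6.67, 7.19 and 10.8 CPM in coculture, with -0.42 (SE 0.250, adjusted p = 0.565). It passed in 1 of 21 alternatives, the block with the trends removed, at -0.44 (adjusted p = 0.0486). Trib3 was at 21.1, 20, 33.8 and 23.3 CPM alone and at 13.6, 22.2, 27.9 and 31.9 CPM in coculture, with -0.052 (SE 0.215, adjusted p = 0.962). Trib3 ranged over a wider interval in coculture than alone, and Adh replicate 1 was the lowest of the coculture libraries for both genes. Sesn2 differed by -0.19 and Ppp1r15a by -0.077, and Stc2 and Vldlr had 0 counts in all 8 libraries.

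Adh replicate 1 also had the lowest median over the 35 members, at -0.47 on the log2 scale relative to the mean of MS-5 cells alone, and the other coculture libraries were at -0.30, -0.20 and -0.12. The libraries of MS-5 cells alone were at -0.060, -0.12, 0.13 and 0.052. The median of the highest coculture library was about that of MS-5 replicate 2, the lowest library of MS-5 cells alone. Without Adh replicate 1, 32 of 35 members were lower, the median was -0.20 and 5 members passed, where 0.591% of all genes did. Without MS-5 replicate 3 or MS-5 replicate 4, 2 members passed, Bcat1 and Nars, with 33 and 35 of 35 lower. Of all genes, 0.235 and 0.258% passed there.

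Whether the response of REC-1 cells differed from that of MS-5 cells was tested as an interaction of species and culture in 1 edgeR model of Adh and Sep human counts and Adh and MS-5 mouse counts, over 8643 genes with 1 symbol in common. This test was chosen after the data were seen, and the coculture counts of both species come from the same 4 Adh libraries. All 34 members tested in both species had a more positive change in REC-1 cells, against 52.6% of all genes. The median difference was 0.45 on the log2 scale for members and 0.016 for all genes. The difference passed for 15 of 34 members, all in this direction, where 4.69% of all genes passed with either sign. ASNS differed by 0.99 (SE 0.123, adjusted p = 0.000197), ATF5 by 0.98 (SE 0.185, adjusted p = 0.0054), PSAT1 by 0.83 (SE 0.118, adjusted p = 0.000551) and BCAT1 by 0.73 (SE 0.0935, adjusted p = 0.00021). ATF4 differed by 0.44 (SE 0.119, adjusted p = 0.0366). DDIT3, CHAC1 and TRIB3, the members most associated with severe stress, did not pass, at 0.31, 0.43 and 0.084 with adjusted p = 0.347, 0.724 and 0.906. Leaving out each library in turn gave 9 to 17 members that passed, and at least 33 of 34 members kept the sign. The fewest passed without MS-5 replicate 3, where 232 of the 8643 genes did, and the most without Sep replicate 1, where 946 did. Reads given to the wrong species would enter both counts, and their part in the difference between species was not tested. For Nupr1, a gene chosen after its values were seen, the human count was 0 where the mouse count was 4007 over the Adh libraries, and Ms4a1 and Cd79a, which had no mouse counts in MS-5 cells alone, had 2 mouse counts each there.

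The mRNA levels of several members differed between the lines. Among REC-1 cells cultured alone, the highest levels per length were those of SHMT2 (142 RPKM), SLC38A2 (134), NARS (112) and ATF4 (97.1), with exon length taken as the union of all annotated exons. SHMT2 and SLC38A2 did not differ beyond their spread (SD 5.79 and 10.1 RPKM). In MS-5 cells alone, Atf4 (139.9 RPKM), Psat1 (137), Phgdh (132) and Gars (127) were highest, and these neighbours lay within 1 SD of each other. The annotated exons of this last gene cover 3119 bases in mouse and 17366 in human. By CPM it was at 395 in MS-5 cells alone and at 340 in Sep cells. Places in these lists therefore depend on the annotation and are not to be compared between the lines. In the same gene, compared by CPM because the annotated exon lengths differ between the species, Phgdh was at 328 ± 27.3 CPM (SD, n = 4) in MS-5 cells alone and PHGDH at 11.2 ± 2.09 CPM (SD, n = 4) in Sep cells. Asns was at 278 ± 11.7 CPM in MS-5 cells and at 45.8 ± 3.05 CPM in Sep cells, and Psat1 at 585 ± 49.0 against 83.7 ± 5.79 CPM. Nupr1 was at 34.5 ± 5.59 CPM in MS-5 cells and had 0 counts in REC-1 cells. In the other direction, BCAT1 was at 377 ± 28.1 CPM in Sep cells and at 79.1 ± 2.71 CPM in MS-5 cells, and PYCR1 at 43.3 ± 7.21 against 4.60 ± 1.32 CPM. These levels are of 2 lines from different species, and they were not tested.

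**Figure D4:**
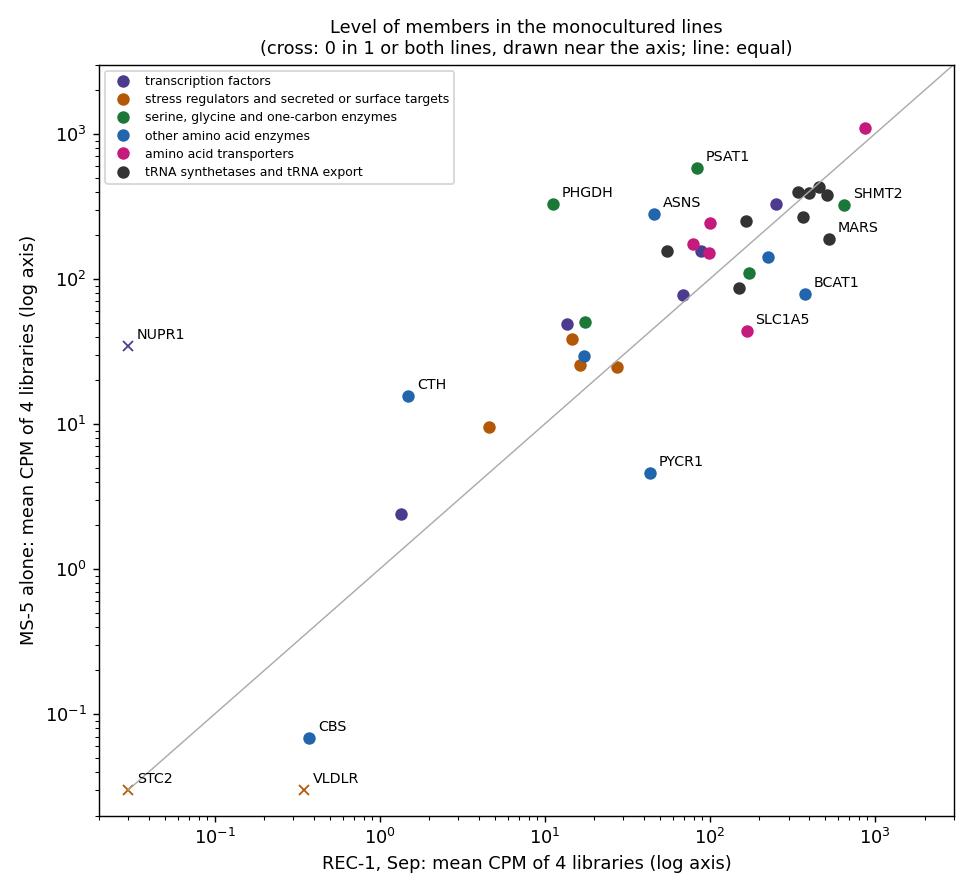
Mean CPM of 4 libraries of each member in REC-1 cells cultured alone (x axis, log scale) and in MS-5 cells alone (y axis, log scale), with a line of equal CPM. Each gene is to be read against the line and not against other genes, since CPM is not scaled to length. PHGDH, CTH, PSAT1 and ASNS lie above the line, PYCR1, BCAT1 and SLC1A5 below it, and NUPR1, at 0 in REC-1 cells, is drawn as a cross near the axis.

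Other genes of the pathway, from further lists, had 0 called genes in every comparison by edgeR, and 0 passed the adjusted p. In each list and comparison, 0 to 5 genes had an unadjusted p under 0.05. The 12 other cytosolic tRNA synthetases had 10 higher means in Adh than in Sep and 2 lower, and their median log2 change was 0.15, while in MS-5 cells 2 were higher and 10 lower in coculture, with a median of -0.12. For the 13 tested genes of eIF2α kinases, phosphatases and the exchange factor eIF2B, 7 were higher and 6 lower in Adh than in Sep, with a median of 0.023, and in MS-5 cells 5 of 14 were higher, with a median of -0.033. The 17 mitochondrial tRNA synthetases, which are not part of the cytosolic charging system, had medians of 0.0041 in REC-1 cells, Adh against Sep, and of 0.027 in MS-5 cells. The 15 chaperones and folding factors driven by ATF6 and XBP1, the other arms of the unfolded protein response, had a median of 0.14 in REC-1 cells, with 12 higher and 3 lower, and of 0.010 in MS-5 cells, with 9 higher and 6 lower. Of 13 further ATF4 targets that were tested, 8 were higher and 5 lower in REC-1 cells with a median of 0.080, and 7 were higher and 6 lower in MS-5 cells with a median of 0.038. Whether these lists differed from the members was not tested. The 7 B-cell markers gave 6 tested genes with a median of 0.11 in Adh against Sep, and in the bulk samples used here fewer cells of a type and less RNA per cell cannot be told apart.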

How the data were processed

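PolyA RNA of 16 libraries was sequenced, and per the labels and the study's methods the authors split the reads by species (Xenome), mapped each part to GRCh38 or GRCm38 with STAR 2.5.1b, keeping unique hits, and counted fragments per gene with featureCounts of Subread 1.5.2. The deposited values are whole-number counts per gene, neither normalized nor filtered. Low counts were mostly even (65.0 to 79.2% of counts of 1 to 20), so that mates appear to have been counted singly. The other 20 columns of the tables, from samples outside the groups, were not used.

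Counts were analysed in R 4.3.3 with edgeR 4.0.16 (filterByExpr, TMM, its legacy quasi-likelihood F-test, Benjamini-Hochberg adjustment over all genes tested). The REC-1 groups shared 1 model of 12 libraries, and MS-5 cells in coculture and alone another. RPKM used unions of exons, and promoters were read from GRCh38. The members and lists were chosen with earlier results of these data known. All 38 members were reported, with values by library for ATF4, DDIT3, ASNS, CHAC1, TRIB3 and called members. Members that passed without a 1.5-fold change, and the other genes given by library, were chosen after their values were seen. Genes of further lists were to be named only if called. At these depths, counting error limits genes at a few CPM, and a floor of 3 counts was used. Code was tested on simulated counts. One marker gene is not reported here.

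Alternatives were a minimum of 10 counts per library or no filter on low counts, DESeq2 1.42.0 and its size factors, upper-quartile normalization, no fold minimum, removal of mitochondrial genes, thinned counts, cross-species reads subtracted, a model of 2 groups, the replicate number as a block and each library left out. Halved counts, removal of trends with GC content and length, and the test between species were added after seeing the data.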

Additional observations from a re-analysis of the deposited data

Results flagged for a closer look

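With Dixon's test of the most extreme library in each group of 4, which flags about 1 in 20 groups by chance, 2 of 46 groups of named genes were marked. ASNS in Adh replicate 3 was at 83.4 CPM, above the other Adh libraries at 64.7 to 66.2 CPM. ATF5 in Adh replicate 1 was at 106 CPM, below the other Adh libraries at 139 to 141 CPM.

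The change in REC-1 cells (Adh against Sep) and in MS-5 cells (coculture against alone) differed for 15 members at an adjusted p of at most 0.05 in edgeR's test of the interaction. The differences on the log2 scale were 0.99 for ASNS, 0.98 for ATF5, 0.83 for PSAT1, 0.77 for PSPH, 0.73 for BCAT1, 0.67 for SLC7A5, 0.66 for MTHFD2 and 0.54 for SARS. They were 0.48 for WARS, 0.47 for NARS, CARS and SHMT2, 0.46 for GARS, 0.44 for ATF4 and 0.41 for ALDH18A1. Each was more positive in REC-1 cells, and the mean of each of these members was higher in Adh than in Sep and lower in MS-5 cells in coculture than alone. The coculture values of both species come from the same libraries, and no explanation was tested.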

How the results depend on the processing

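With no fold minimum, 1 member passed in Adh against Susp, 4 in Adh against Sep and 7 in MS-5 cells. With thinned counts, 0 members were called in Adh against Sep, as ASNS fell just short of 1.5-fold, while 282 of all genes were called. With trends on GC content and length removed, 0 members were called in Susp against Sep and 2 in Adh against Sep (ASNS and ATF5), with or without the replicate block. Of all genes, 119 and 470 were called there, and 117 and 451 with the block. Between the species, 23 members passed with the trends removed (25 with the block), where 1162 and 1475 of all 8643 genes did, against 405 without the removal. Leaving out 1 library at a time gave 0 to 2 called members in Adh against Sep and 9 to 17 that passed between the species. In Adh against Sep, 0 were called without Sep replicate 3 or Adh replicate 3, where 207 and 192 of all genes were called. Without Sep replicate 4 or Adh replicate 1, 2 members were called, where 173 and 203 of all genes were. The number past the adjusted p ranged over all settings from 0 to 4 in Adh against Susp and from 1 to 3 in Susp against Sep. It ranged from 1 to 13 in Adh against Sep and from 2 to 22 in MS-5 cells. The highest numbers came from settings where more of all genes passed too. With the trends removed and no block, 4 passed in Adh against Susp and 13 in Adh against Sep, where 2.57% and 11.5% of all genes did. With no low-count filter, 3 passed in Susp against Sep, where 2.49% of all genes did. The 22 in MS-5 cells passed with the trends removed and the block, where 6.70% of all genes did. All members in MS-5 cells were lower in 17 of 22 settings, with at least 32 of 35 lower in the others. With no low-count filter 17 passed in MS-5 cells, where 1.61% of all genes did, and DESeq2 gave 7 in Adh against Sep and 11 in MS-5 cells, where 7.57% and 2.08% did. TRIB3 in Adh against Susp passed with the trends removed, at 0.44, and 0.43 with the block.

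Libraries that share a number were tested as pairs. The deviations of such libraries correlated with r from 0.29 to 0.32 for number 1 in every comparison. For the other numbers r was from -0.021 to 0.20. These values cannot decide whether a number marks a shared experiment, since libraries of 1 experiment can also differ independently. The main test did not use the numbers, and the replicate block did. With the replicate block 3 members passed in Susp against Sep, 6 in Adh against Sep, 19 in MS-5 cells (the 7 and 12 more) and 19 between the species, where 3.86%, 5.65% and 3.57% of all genes and 767 of 8643 did.

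Small log2 fold changes turned sign. CHAC1 in Susp against Sep was 0.0017 with no filter, 0.0025 with upper-quartile normalization, 0.075 with the replicate block, 0.00178 with halved counts and -0.31 to 0.21 with 1 library left out. In Adh against Sep, CHAC1 was -0.026 with halved counts and -0.44 to 0.28 with 1 left out, and in Adh against Susp -0.028 and -0.44 to 0.28. TRIB3 in Susp against Sep was 0.024 with thinned counts and -0.19 to 0.020 with 1 left out, in Adh against Sep -0.027 to 0.10, and in MS-5 cells 0.030 and -0.22 to 0.16. ATF4 in Adh against Susp was 0.10 with trends removed, with or without the block. The causes were not tested.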
